A study of Bos taurus with 129 samples.

Results

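Haptoglobin, heme clearance and iron handling were described through 10 genes: HP, CD163, HMOX1, BLVRB, SLC40A1, FTH1, FTL, SLC11A1, TFRC and NCOA4. They were taken by symbol from the 32395 genes of the count table, and all 10 passed the filter on low counts that left 18937 genes for testing. The smallest count of any of the 10 in any library was 258.

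The cattle were 26 commercial crossbred steers bled 5 times after arrival, on day 0 and then on days 13, 28, 45 and 60, and RNA from whole blood gave 59 libraries of healthy and 70 of BRD cattle, since healthy animal 48 had none on day 13. The labels call 12 animals healthy and 14 animals positive for bovine respiratory disease (BRD), the pneumonia complex of newly received cattle. Each animal was on 1 of 3 mineral programs. AAC fed copper, cobalt, manganese and zinc in amino acid or other organic complexes, COMBO fed the same and added a mineral and vitamin drench before shipment, at day 0 and with any treatment for illness, and INR fed sulfate sources. AAC had 4 healthy and 4 BRD animals, COMBO had 4 healthy and 3 BRD animals, and INR had 4 healthy and 7 BRD animals. Every animal, healthy or BRD, had been hauled a long distance and was given a viral respiratory vaccine and doramectin on day 0. All were vaccinated again between days 13 and 28. The paper names the lack of a control group as a limit of its design. Day 0 was the day of pen enrollment, the day after arrival, and therefore not a resting state. The paper does not take day 0 expression differences between programs as a result of trace element supplementation. The labels give no date of diagnosis, so a BRD library may precede, coincide with or follow the illness. All healthy COMBO animals were in pen 5 and all BRD COMBO animals in pen 6, so label and pen cannot be told apart in COMBO.

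Haptoglobin, encoded by HP, is a plasma protein that binds hemoglobin set free from red cells, and it is a major acute phase protein of cattle that is made mainly by the liver. The macrophage and monocyte receptor CD163 takes up the complex, heme oxygenase 1 (HMOX1) opens the heme ring to biliverdin, carbon monoxide and iron, and biliverdin reductase B (BLVRB) is a flavin and biliverdin reductase abundant in red cells. Iron then leaves the cell through ferroportin (SLC40A1), is stored in ferritin (FTH1 and FTL) or is pumped out of the phagosome by the metal transporter NRAMP1 (SLC11A1). Transferrin receptor 1 (TFRC) brings iron in, and NCOA4 carries ferritin to the lysosome for iron release.

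Library totals ran from 31613545 to 61692136 counts with a median of 44268685. Levels are given as CPM, the usual unit in which a gene's count is scaled to a common library size, here with TMM factors, and they are compared within a gene and not between genes because no transcript length was used. Changes are log2 fold changes from edgeR's quasi-likelihood F-test with their standard error (SE), and a gene was called when its Benjamini-Hochberg adjusted p (FDR) over all 18937 genes was below 0.10. These are bulk samples, in which fewer cells of a type and less RNA per cell cannot be told apart. Most listed markers of the leukocytes, platelets and red cells of blood were detected, although MMP8 was at 0 in 99 libraries and RHAG in 51. By symbol, the count table held 10 of 12 neutrophil, 11 of 12 monocyte, 10 of 11 platelet and 8 of 10 eosinophil and basophil markers. The neutrophil markers CSF3R and FPR1 were absent from it.

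HP, CD163 and SLC11A1 fell after day 0 in both labels and stayed low to day 60. In healthy cattle 14 of 40 gene and day tests were called lower and 1 higher, and in BRD cattle 15 of 40 were called lower and 2 higher. Of all genes, 4.84%, 10.22%, 4.19% and 5.81% were called lower and 6.11%, 10.76%, 4.36% and 5.83% higher at days 13, 28, 45 and 60 in healthy cattle. The same shares were 8.35%, 10.27%, 10.74% and 10.17% lower and 9.08%, 9.78%, 11.77% and 9.45% higher in BRD cattle. Per day, 3 to 4 of the 10 genes were called lower, and 0 or 1 was called higher. Since the 10 genes were chosen with earlier results of these data known, their counts beside these shares are only a description. The median log2 change of the 10 lay between -0.21 and 0.03, while that of all genes tested stayed between -0.01 and 0.01.

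HP in healthy cattle on day 0 ran from 100.2 to 751 CPM with a median of 322. On day 13 it ran from 43.5 to 343 CPM (median 96.5), on day 28 from 36.18 to 211 CPM (median 64.8), on day 45 from 29.8 to 206 CPM (median 90.32) and on day 60 from 24.2 to 174 CPM (median 64.6). The ranges of the 5 days overlapped, but every healthy animal was below its own day 0 value on each later day. In BRD cattle HP ran from 97.8 to 939 CPM on day 0 with a median of 258. It then ran from 30.6 to 127.3 CPM (median 78.1), from 20.7 to 234 CPM (median 60.4), from 26.1 to 125.8 CPM (median 76.52) and from 4.88 to 145 CPM (median 54.3). All 14 BRD animals were likewise lower than on day 0 at each later day.

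HP fell in healthy cattle at days 13, 28, 45 and 60, with log2 changes of -1.59 (SE 0.22), -1.78, -1.65 and -2.125, which is 3.01 to 4.36-fold, with adjusted p between 9.2e-13 and 1.6e-07. In BRD cattle the log2 changes were -2.06 (SE 0.20), -2.24, -2.1 and -2.47, which is 4.16 to 5.53-fold, with adjusted p between 4.1e-17 and 1.4e-13. The difference between the labels in this change was -0.47 (95% interval -1.04 to 0.11) at day 13 and -0.34 (-0.91 to 0.23) at day 60, and it was not called at any day. Animal 43 showed the deepest fall in the BRD group, to 0.0334 of its day 0 level at day 60.

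CD163 on day 0 ran from 54.58 to 566 CPM in healthy cattle (median 152) and from 66.02 to 669.9 CPM in BRD cattle (median 147). Healthy cattle then had medians of 76.9, 60.5, 65.97 and 64.5 CPM, between a lowest value of 33 on day 60 and a highest of 168 on day 28. BRD cattle had medians of 48.4, 48.98, 45.36 and 58.20 CPM, between a lowest value of 14.99 on day 45 and a highest of 159.5 on day 28, and the ranges overlapped with day 0. All animals but healthy animal 10 on day 13 were below their own day 0 value. CD163 fell in healthy cattle, with log2 changes of -1.34 (SE 0.26), -1.44, -1.34 and -1.48 and adjusted p between 7.9e-06 and 0.00018. In BRD cattle the changes of the receptor were -2.095 (SE 0.24), -2.07, -1.95 and -1.89, with adjusted p between 2.3e-11 and 1.1e-09. The label difference in the change was -0.76 at day 13 (95% interval -1.42 to -0.09, unadjusted p = 0.028, adjusted p = 1.0) and was not called.

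SLC11A1 on day 0 ran from 26.4 to 202 CPM in healthy cattle (median 57.4) and from 28.5 to 280.3 CPM in BRD cattle (median 84.5). In healthy cattle the later days had medians of 31.8, 30.2, 29.4 and 27.1 CPM, with a lowest value of 7.14 on day 28 and a highest of 77.04 on the same day. In BRD cattle they had medians of 35.8, 42.7, 32.22 and 30.6 CPM, with a lowest value of 9.78 on day 60 and a highest of 82.8 on day 13. The ranges of the later days overlapped with that of day 0 in both labels. From 9 of 11 to 12 of 12 healthy animals and from 12 to 13 of 14 BRD animals were below their own day 0 value. SLC11A1 fell at every day, with log2 changes of -1.115 (SE 0.26), -1.08, -1.18 and -1.38 in healthy cattle (adjusted p between 5.0e-05 and 0.0028) and -1.23 (SE 0.23), -1.03, -1.47 and -1.53 in BRD cattle (adjusted p between 6.2e-07 and 0.00068).

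**Figure D1:**
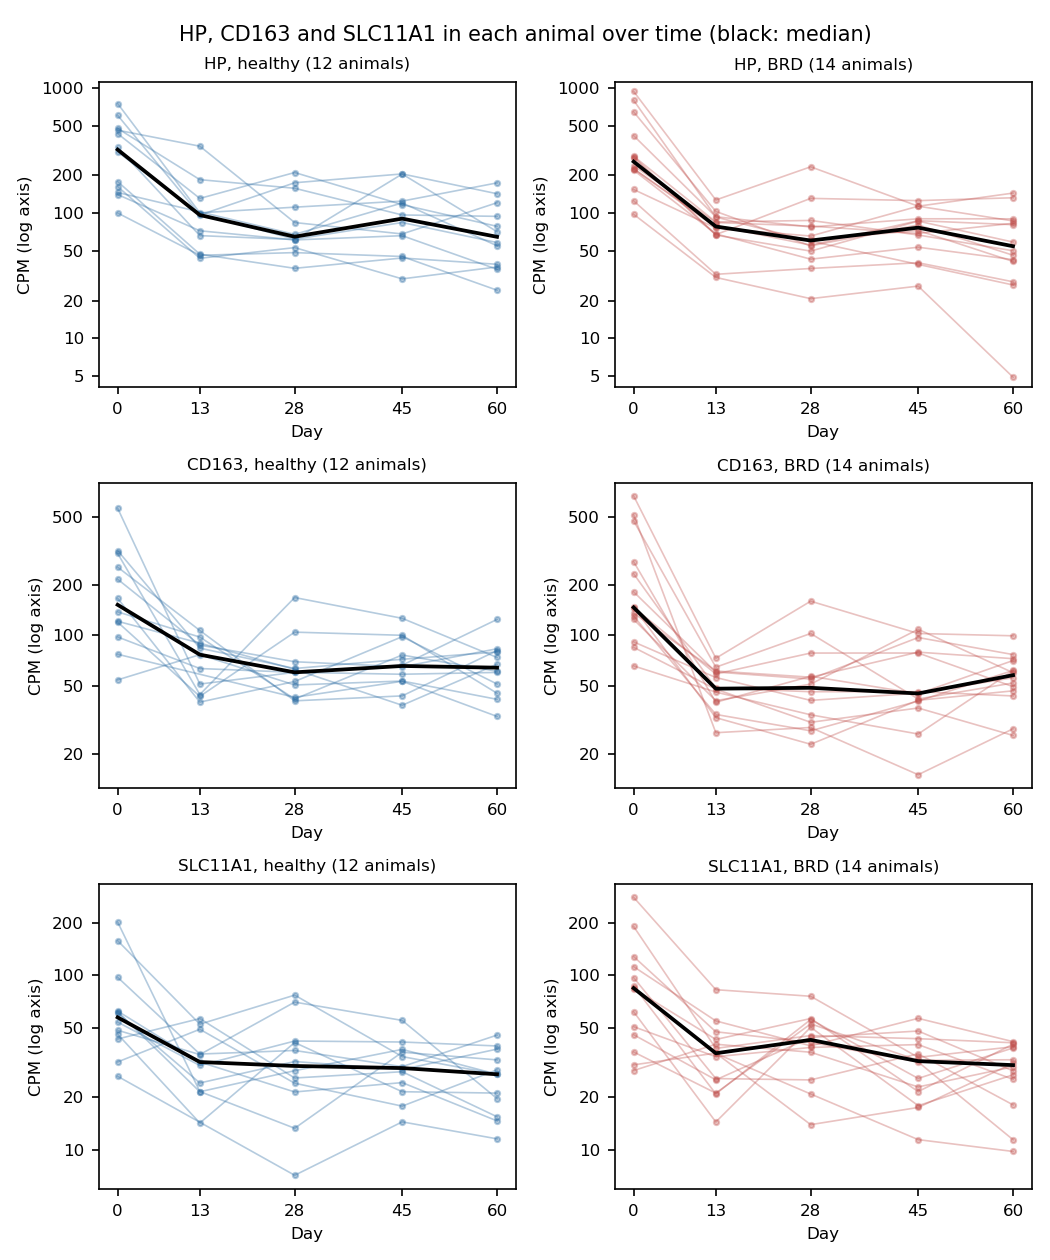
CPM on a log axis against day for HP, CD163 and SLC11A1, healthy cattle on the left and BRD cattle on the right, 1 thin line per animal and the median in black (11 healthy animals on day 13). The medians drop between day 0 and day 13, from 322 to 96.5 CPM for HP in healthy cattle and from 258 to 78.1 CPM in BRD cattle, and stay near the lower level.

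The ferritin light chain FTL moved by a small amount and the heavy chain FTH1 was not called against day 0 by edgeR with TMM factors. FTL fell by 0.38 (SE 0.10) on the log2 scale in healthy cattle at day 28, when 12 of 12 animals were lower, and by 0.29 (SE 0.10) at day 60, when 11 of 12 were lower, with adjusted p of 0.0067 and 0.066. In BRD cattle the log2 changes of FTL were -0.32 (SE 0.10) at day 28, -0.26 at day 45 and -0.33 at day 60, with adjusted p of 0.012, 0.047 and 0.0097, and 13, 8 and 11 of 14 animals were lower. The day 60 call in healthy cattle was lost when any of animals 6, 7, 30, 42 or 46 was left out, and the day 45 call in BRD cattle without animal 21 or 43. The medians of FTL moved from 299 CPM on day 0 to 233 on day 28 in healthy cattle and from 306 to 259 in BRD cattle, and the ranges overlapped (233 to 496 against 173 to 305 CPM, and 189 to 627.5 against 170.0 to 416 CPM).

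FTH1 had medians between 1101 and 1230 CPM in healthy cattle and between 1065 and 1389 CPM in BRD cattle over the 5 days. Its log2 changes from day 0 lay between 0.00 and 0.18 in healthy cattle and between -0.10 and 0.27 in BRD cattle, where 11 of 14 animals were higher at day 13 (adjusted p = 0.11). This day 13 change was called by DESeq2 (0.27, adjusted p = 0.083) and by edgeR with RLE factors (adjusted p = 0.094). Between neighbouring days FTH1 fell by 0.35 in BRD cattle from day 45 to day 60 (adjusted p = 0.090). FTH1 levels are uncertain, since the transcribed pseudogene LOC781022 followed them with a Spearman rho of 0.96 over all libraries and the 2 may share reads. FTL overlaps TULP2 in the RefSeq annotation of a later build (ARS-UCD2.0), and it is not stated whether counting used strand.

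TFRC rose at day 28 in both labels. In healthy cattle it ran from 21.51 to 38.8 CPM on day 0 (median 31.2) and from 35.3 to 57 CPM on day 28 (median 42.04), and in BRD cattle from 16.2 to 57.5 CPM (median 32.4) and from 21.2 to 58.5 CPM (median 43.9). All 12 healthy animals and 12 of 14 BRD animals were above their own day 0 value. The log2 changes were 0.49 (SE 0.11, adjusted p = 0.0012) and 0.37 (SE 0.11, adjusted p = 0.0092), or 1.405-fold and 1.29-fold. At days 13, 45 and 60 the log2 changes of TFRC lay between 0.105 and 0.27 in healthy cattle and between 0.03 and 0.19 in BRD cattle, and none was called.

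NCOA4 varied least of the 10, with an SD of log2 CPM of 0.21 over all libraries against 0.35 (FTH1) to 1.19 (HP) for the others, and had group medians between 132 and 159 CPM. It rose by 0.14 (SE 0.06) on the log2 scale in BRD cattle at day 45 (adjusted p = 0.067), when 8 of 14 animals were above day 0, and its other 7 changes from day 0 lay between -0.11 and 0.03. This call was lost when any of animals 17, 18, 23, 27, 41 or 54 was left out, and with the erythroid markers as a covariate or no filter on low counts. NCOA4 rose by 0.15 from day 28 to day 45 in BRD cattle (adjusted p = 0.071). It overlaps LOC132344155 in the RefSeq annotation.

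HMOX1, BLVRB and SLC40A1 were not called at any day in either label. HMOX1 had medians between 38.6 and 52.1 CPM and log2 changes from day 0 between -0.22 and 0.05. BLVRB had medians between 19.2 and 26.2 CPM and log2 changes between -0.21 and 0.36, the highest of them in BRD cattle at day 13 (95% interval 0.03 to 0.69, adjusted p = 0.16). SLC40A1 had medians between 108.5 and 152.4 CPM, with log2 changes between 0.03 and 0.31, and 9 of 12 healthy and 10 of 14 BRD animals were above day 0 at day 60.

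**Figure D2:**
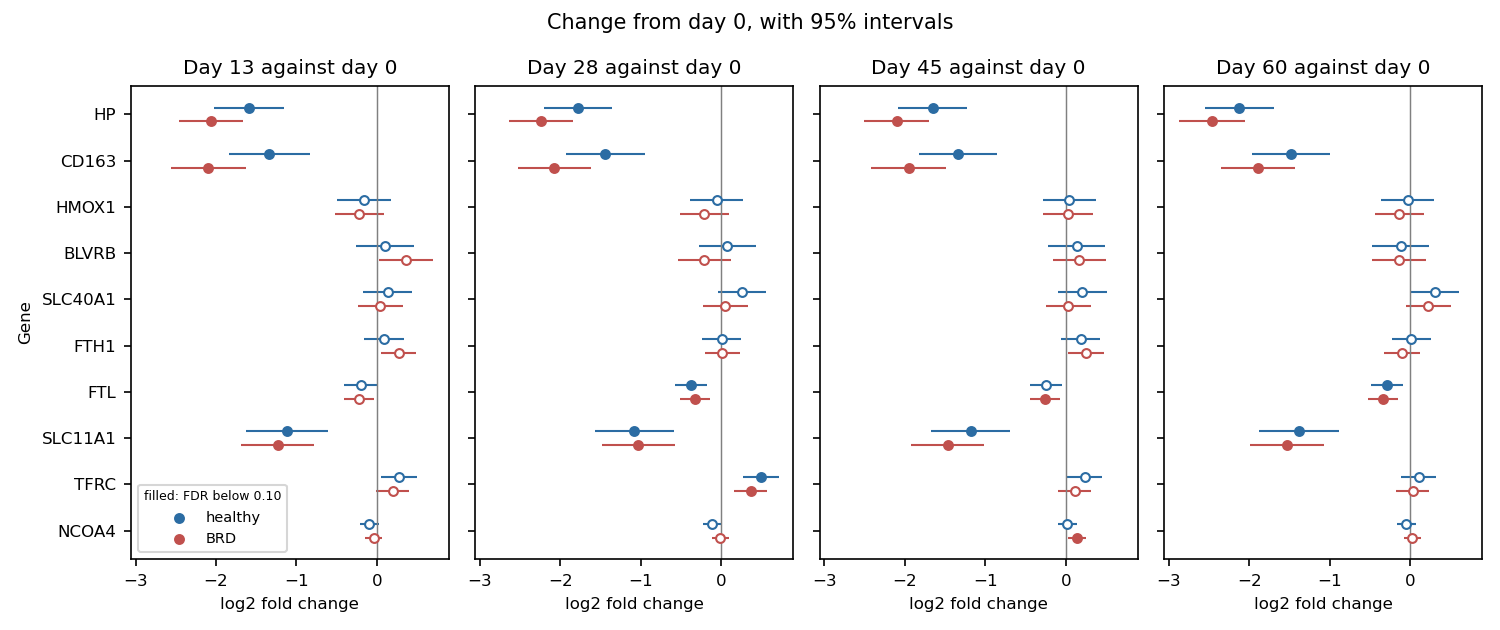
Log2 fold change from day 0 for the 10 genes at days 13, 28, 45 and 60, with 95% intervals, healthy cattle in blue and BRD cattle in red; filled points have an FDR below 0.10. HP, CD163 and SLC11A1 are filled and left of 0 in all panels, from -1.03 to -2.47.

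Between neighbouring sampling days after day 13, 0 of 30 tests were called in healthy cattle (3 had an unadjusted p below 0.05) and 2 of 30 in BRD cattle, the FTH1 and NCOA4 changes above. Over all genes 0.0686%, 11.26% and 0% were called in healthy cattle from day 13 to 28, 28 to 45 and 45 to 60, and 0.602%, 12.49% and 3.23% in BRD cattle. From day 13 on, HP, CD163 and SLC11A1 thus had no called step in edgeR in either label. These step comparisons were added after the data were seen.

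Most of the variation in HP after day 0 lay between animals. Over days 13 to 60, 71.95% of the variance of log2 HP lay between animals, 4.60% between days and 23.45% in the rest. The corresponding share between animals was 57.09% for CD163, 45.7% for SLC11A1, 63.6% for NCOA4 and 37.8% for BLVRB, and the other genes lay between 38.28% (FTH1) and 59.5% (SLC40A1). These shares come from means of 3 or 4 libraries per animal. Scatter between libraries alone would also give such means some spread, and this part was not subtracted. BRD animal 23 had the lowest HP, 97.8 CPM on day 0 and a geometric mean of 16.85 CPM over days 13 to 60, and it was the lowest of all animals on each of the 5 days. Healthy animal 42 and BRD animal 40 were highest in HP over days 13 to 60, at 149 CPM each. In CD163 the highest animal over those days was BRD animal 21 (104.5 CPM) and the lowest BRD animal 43 (23.8 CPM), which had been the third highest on day 0 at 518 CPM.

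Other cell type markers moved with day as well. The CPM of neutrophil markers was summed over the 10 in the count table, of which 9 were tested. This sum went from a median of 2168 on day 0 to between 1243 and 1492 in healthy cattle. In BRD cattle it went from 2584 to between 1578 and 1748. The ranges on day 0 were 1211 to 4771 and 1348 to 9659. For the 11 monocyte markers the median was 1943 on day 0 and between 1171 and 1366 later in healthy cattle, and 2068 and between 1230 and 1355 in BRD cattle. The 15 erythroid markers went the other way, from a median of 230 to between 2282 and 3876 in healthy cattle and from 283 to between 1736 and 7323 in BRD cattle, with libraries from 50.3 to 84940. No gene of the 10 was in a marker list. For the counts of markers that follow, the shares of all genes called are those given above. Of the neutrophil markers 0 to 5 of 9 were called lower in healthy and 5 to 7 of 9 in BRD cattle over the days, and of the erythroid markers 7 to 10 of 15 and 7 to 14 of 15 were called higher. Of the 11 monocyte markers 4 to 5 were called lower in healthy and 5 to 7 in BRD cattle, with 1 to 2 higher. T cell markers had 0 to 2 of 10 called lower and B cell markers 0 to 2 of 8 higher, with 1 of 8 lower in BRD cattle on day 45. Their part in the changes of the 10 genes was not tested beyond the covariate fits. Those fits used the neutrophil or the erythroid markers. None used the monocyte markers, so a part of monocytes in the falls was not tested.

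With the mean log2 CPM of the neutrophil markers as a covariate, HP still fell, with log2 changes from -1.39 to -1.72 in healthy and from -1.56 to -1.961 in BRD cattle, and so did CD163, with -1.01 to -1.08 and -1.29 to -1.55. SLC11A1 kept 7 of its 8 calls, with -0.51 (adjusted p = 0.19) in BRD cattle at day 28, and FTL kept 1 of its 5, at day 28 in healthy cattle (-0.27, adjusted p = 0.062). In the same fit SLC40A1 was called higher at days 28, 45 and 60 in healthy cattle, by 0.37 to 0.58, and at all 4 days in BRD cattle, by 0.37 to 0.60. BLVRB was called higher there at day 13 in BRD cattle (0.45, adjusted p = 0.091), and FTH1 at days 13 and 45 in BRD cattle (0.36 each, adjusted p = 0.033 and 0.031). With the erythroid markers as a covariate HP, CD163 and SLC11A1 kept all their calls, and BLVRB was called lower in BRD cattle at days 28 and 60 (-0.61 and -0.46) and in healthy cattle at day 60 (-0.42). FTH1 was called lower with that covariate, at day 28 in healthy cattle (-0.27, adjusted p = 0.077) and at days 28 and 60 in BRD cattle (-0.24 and -0.30, adjusted p = 0.095 and 0.028), so the direction of its calls differed between the 2 covariates. FTL gained calls there at day 45 in healthy cattle (-0.325) and at day 13 in BRD cattle (-0.34).

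**Figure D3:**
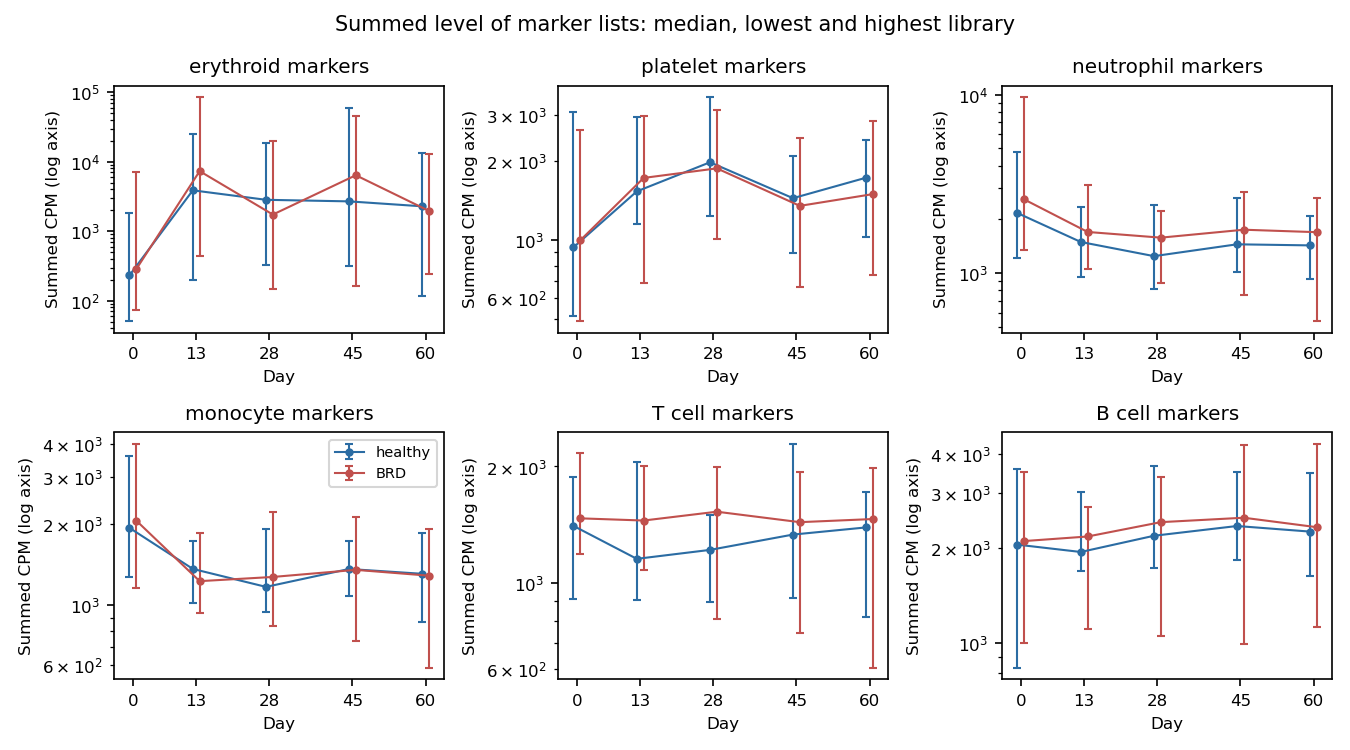
Summed CPM of 6 marker lists on a log axis against day, with the median as a point and the lowest and highest library as the bar, healthy cattle in blue and BRD cattle in red. Erythroid and platelet sums are higher after day 0 and neutrophil and monocyte sums lower, while T and B cell medians stay within 1156 to 2506.

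The question whether BRD and healthy cattle differed on a given day gave no call among the 10 genes. With the 3 mineral programs weighted equally, edgeR called 0 of 50 gene and day tests, 1 of which had an unadjusted p below 0.05, and DESeq2 called 0. Over all genes the share called was 0.0158%, 0%, 0.00528%, 0% and 0.00528% at days 0, 13, 28, 45 and 60. The test with an unadjusted p below 0.05 was BLVRB at day 13 (log2 0.42, 95% interval 0.04 to 0.79, unadjusted p = 0.032, adjusted p = 1.0). The smallest adjusted p was 0.66, for FTL at day 28.

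HP had a log2 ratio of -0.05 (95% interval -0.70 to 0.60) between BRD and healthy cattle on day 0 and of -0.56 (-1.23 to 0.11) on day 13. CD163 had -0.01 (-0.53 to 0.51) and -0.51 (-1.05 to 0.03) on the same days. These intervals include no difference, and also the day 13 estimates of 1.475-fold and 1.425-fold, so the tests do not show that the labels were alike. The day 0 value of HP averaged unlike estimates. They were 0.02 (SE 0.58) in AAC, -1.12 (SE 0.64) in COMBO and 0.96 (SE 0.53) in INR, and none was called. CD163 on day 0 also had estimates of both signs among programs, given below. NCOA4 was held most closely, with intervals inside -0.21 and 0.23 on all 5 days. The change from day 0 differed between the labels in 0 of 40 tests by edgeR and by DESeq2 (1 with an unadjusted p below 0.05, CD163 at day 13), against 0% of all genes at each of the 4 days.

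**Figure D4:**
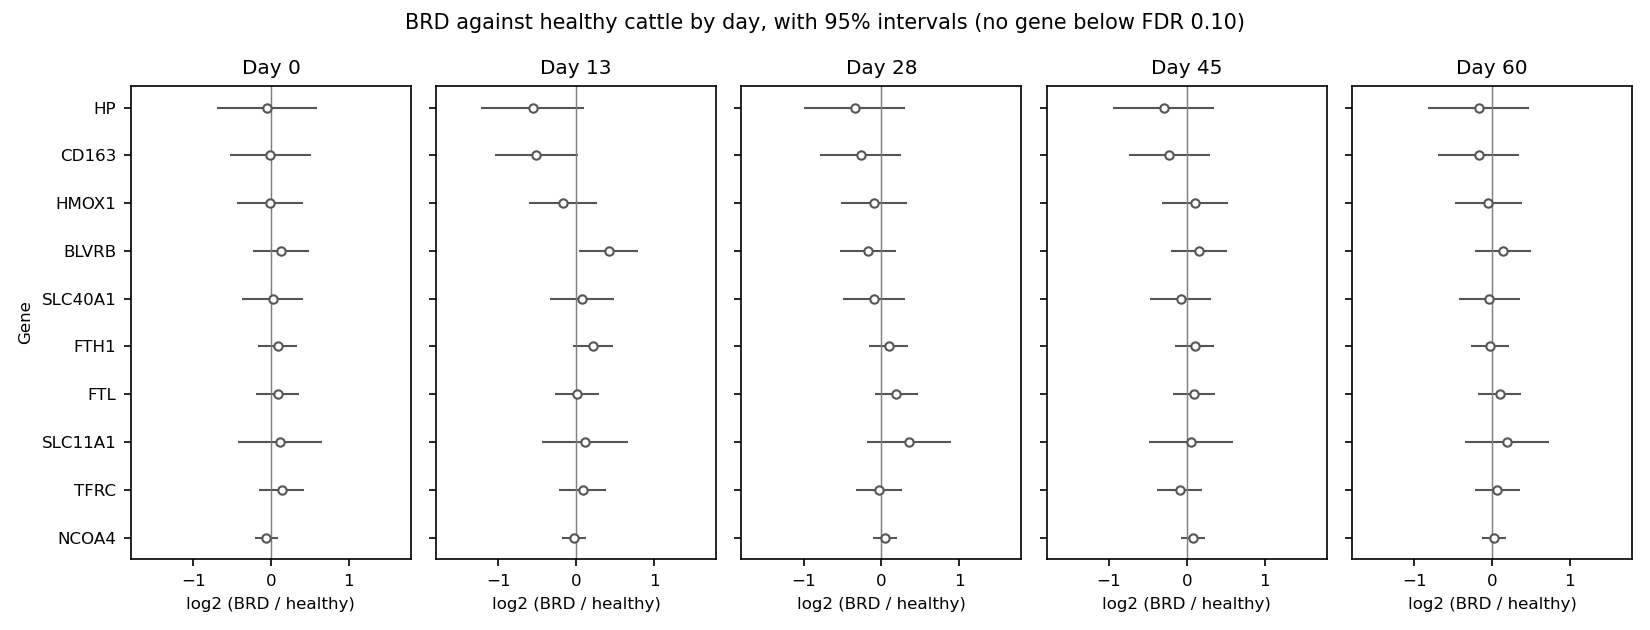
Log2 ratio of BRD to healthy cattle for the 10 genes on each day, with 95% intervals, the 3 mineral programs weighted equally. Estimates lie between -0.56 and 0.42, and no adjusted p is below 0.10.

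The mineral programs, taken over both labels, gave 0 of 50 calls in a test on 2 degrees of freedom by edgeR and 0 by DESeq2, with 6 unadjusted p below 0.05. Over all genes 0.106%, 0.306%, 0.0422%, 0.037% and 0.0211% were called at days 0, 13, 28, 45 and 60. Closest to a call were BLVRB at day 13 (AAC against COMBO 0.92 on the log2 scale, adjusted p = 0.17) and FTH1 at day 13 (0.62, adjusted p = 0.18).

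The BRD against healthy difference itself varied with the mineral program for 4 of 50 tests, CD163 and SLC11A1 at day 0 and BLVRB and FTH1 at day 13. This test was added after the data were seen. Over all genes 10.73%, 1.99%, 0.581%, 0.121% and 0.248% were called at days 0, 13, 28, 45 and 60. The 2 calls among 10 genes at day 0 thus stand beside a background near 1 in 10. Since day 0 was pen enrollment, a dependence on the feed cannot be read from that day. COMBO animals, healthy and BRD, had already been drenched before shipment, and a part of that drench in the day 0 values was not tested.

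CD163 in COMBO on day 0 was 91.6, 66.02 and 124.3 CPM in the 3 BRD animals and 119.9, 566, 306 and 138 CPM in the 4 healthy animals, and the highest BRD value lay just above the lowest healthy one. In AAC it was 146, 669.9, 273 and 136 CPM in BRD and 166, 215, 77.4 and 254 CPM in healthy animals. In INR it ran from 85.04 to 518 CPM (median 181) in BRD and was 318, 54.58, 97.97 and 121.3 CPM in healthy animals. CD163 in BRD animals thus was lower than in healthy animals in COMBO (log2 -1.59, SE 0.53, adjusted p = 0.077), where 5.54% of all genes were called, with estimates of 0.78 (SE 0.47, adjusted p = 0.40) in AAC and 0.77 (SE 0.42, adjusted p = 0.84) in INR. The test of the difference among programs gave an adjusted p of 0.028. Leaving out 1 animal at a time moved it between 0.0098 and 0.18, and the call was lost without animal 6 or animal 18.

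SLC11A1 in AAC on day 0 was 83.9, 280.3, 191 and 86.8 CPM in BRD and 60.9, 97.5, 26.4 and 31.9 CPM in healthy animals, with 1 healthy animal inside the BRD range. In COMBO it was 28.5, 50.8 and 36.4 CPM in BRD and 48.4, 202, 45.99 and 43.2 CPM in healthy animals, where animal 6 stands apart. SLC11A1 was higher in BRD animals in AAC (log2 1.57, SE 0.49, adjusted p = 0.082), where 3.08% of all genes were called, with -1.14 (SE 0.53, adjusted p = 0.24) in COMBO and -0.07 (SE 0.42) in INR. The test among programs gave an adjusted p of 0.031, with 0.013 to 0.15 when 1 animal at a time was left out, and the call was lost without animal 6 or animal 21.

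On those day 0 libraries the summed neutrophil markers were 2117 to 5912 CPM in BRD and 1514 to 2466 in healthy AAC animals, and 1574 to 2510 and 1886 to 4771 in COMBO. In INR the neutrophil sums were 1348 to 9659 in BRD and 1211 to 2475 in healthy animals. The summed monocyte markers were 1159 to 1795 in BRD and 1879 to 3604 in healthy COMBO animals. They overlapped in AAC (1673 to 3995 in BRD, 1279 to 2142 in healthy animals) and in INR (1171 to 3500 and 1438 to 2340). No fit had the monocyte markers as a covariate. With the neutrophil markers as a covariate, the adjusted p was 0.24 for CD163 and 0.102 for SLC11A1.

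BLVRB in AAC on day 13 was 46.5, 66.8, 35.3 and 99.6 CPM in the 4 BRD animals and 18.43, 26.56 and 22.4 CPM in the 3 healthy animals, with no overlap. FTH1 in the same libraries was 1919, 2903, 1718 and 2511 CPM against 1010.0, 1274 and 1192 CPM, also with no overlap. In COMBO and INR the groups overlapped for both genes. How many of all genes had no overlap in these AAC libraries was not counted. BLVRB was higher in BRD animals of AAC by 1.47 on the log2 scale (SE 0.37, adjusted p = 0.054) and FTH1 by 0.97 (SE 0.25, adjusted p = 0.071), where 0.29% of all genes were called. The estimates in COMBO and INR lay between -0.26 and -0.04.

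The tests among programs gave adjusted p of 0.090 for BLVRB and 0.066 for FTH1 at day 13, and leaving out 1 animal at a time ended the BLVRB call for 17 of 26 animals and the FTH1 call for 6. The summed erythroid markers in these libraries were 12750 to 84940 CPM in AAC BRD and 245 to 8498 CPM in AAC healthy animals, with no overlap either. Both calls were lost with the erythroid markers as a covariate, and also with the neutrophil markers. The BLVRB call was lost with a trended dispersion and with no filter on low counts as well. Over all libraries FTH1 was the gene most like BLVRB, with a Spearman rho of 0.76.

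**Figure D5:**
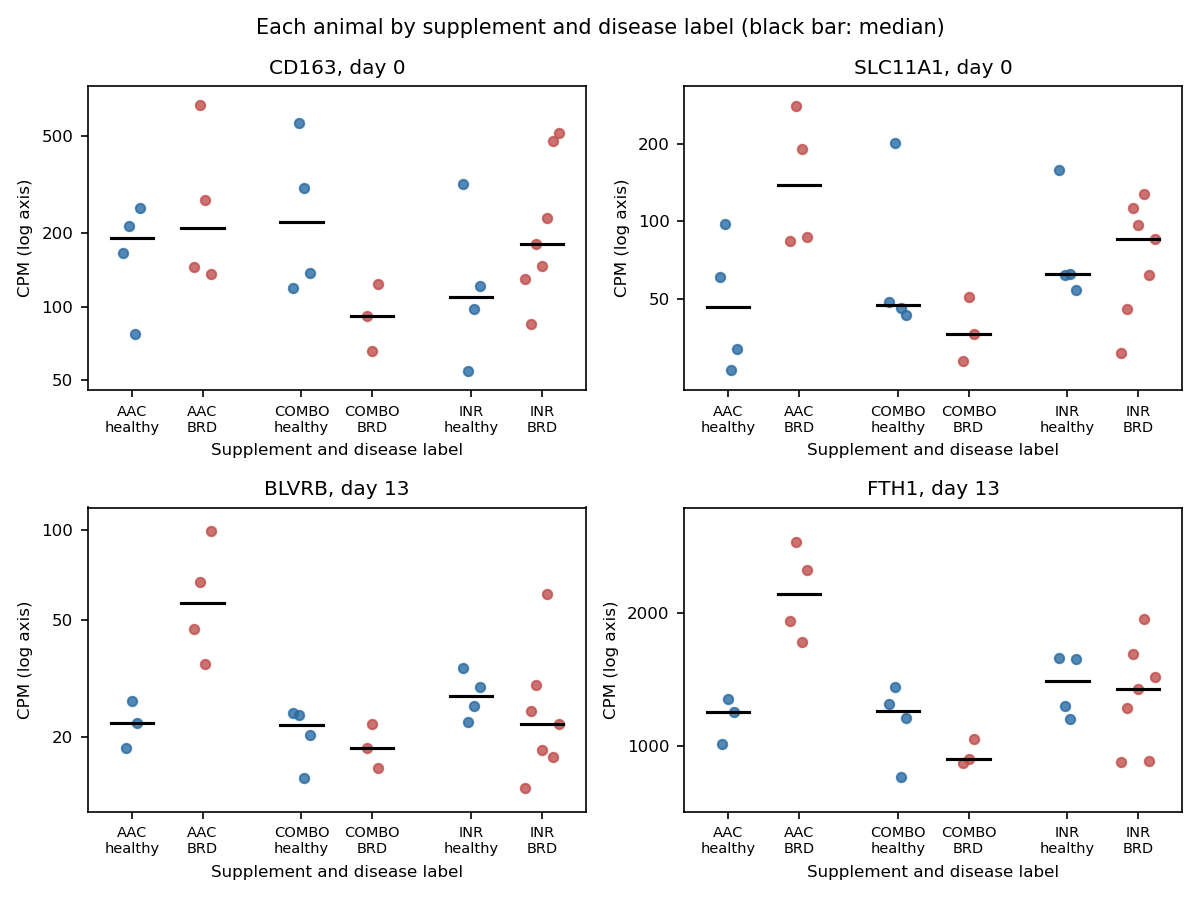
CPM on a log axis for the 4 gene and day tests in which the BRD against healthy difference varied among programs, 1 point per animal and the group median as a black bar, healthy cattle in blue and BRD cattle in red. BLVRB and FTH1 on day 13 do not overlap between the labels in AAC (35.3 to 99.6 against 18.43 to 26.56 CPM for BLVRB), and they overlap in COMBO and INR. The share of all genes without overlap in AAC was not counted.

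The sample labels give an animal the same pen on all days, although the paper reports that steers were rotated between pens. By these labels, pens 2, 3, 4 and 8 held both healthy and BRD animals. Pens 2 and 8 had 2 BRD and 2 healthy animals each, pen 3 had 2 and 1, and pen 4 had 1 and 3. With pen as a term, BRD animals of these pens had more CD163 (log2 1.18, SE 0.32, adjusted p = 0.026) and FTL (0.44, SE 0.13, adjusted p = 0.044) than healthy pen mates on day 0, where 9.04% of all genes tested in that fit were called. CD163 was the largest of the 10 estimates at that day, and HP had an estimate of 0.99 (SE 0.44, adjusted p = 0.17). At days 13 to 60 none of the 10 was called in these pens. The fit had no animal term, its pen term was shared by all days, and animals were not left out in turn. These pens exclude every COMBO animal, and the COMBO values of CD163 are those given above.

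Other genes of the pathway showed a mixed picture. Their counts stand beside 4.19% to 10.74% of all genes called lower than day 0 and 4.36% to 11.77% called higher, by label and day. Of 9 tested heme clearance and degradation genes 2 to 3 were called lower than day 0 at each day in BRD cattle and 2 in healthy cattle, and the median of the list lay between -0.12 and 0.00. STAB1, a scavenger receptor of macrophages and endothelium, fell at every day in both labels, with log2 changes from -0.58 to -0.975. LRP1, which takes up hemopexin bound to heme, fell in BRD cattle at all 4 days (-0.44 to -0.72) and in healthy cattle (-0.43 to -0.56) at days 13, 45 and 60.

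Of 23 tested genes of iron transport, storage and regulation 0 to 4 were called lower and 1 to 3 higher at each day. HFE, which modulates iron uptake, fell at all 4 days in BRD cattle (-0.59 to -0.83) and at days 28, 45 and 60 in healthy cattle (-0.42 to -0.59), with BRD medians of 4.86 CPM on day 0 and 2.84 on day 60. STEAP3, an endosomal ferrireductase that works beside TFRC, rose by 0.365 to 0.62 in BRD and by 0.51 to 0.84 in healthy cattle.

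Heme synthesis genes had 2 to 4 of 10 called higher at each day and 0 to 1 lower. ALAS2, which starts heme synthesis in erythroid cells and was also one of the erythroid markers, went from a median of 4.18 to 44.1 CPM at day 13 in healthy cattle (log2 2.93, SE 0.69) and from 4.355 to 84.23 CPM in BRD cattle (4.16, SE 0.63). Iron-sulfur cluster assembly had 0 to 3 of 12 called lower and 0 to 1 higher. Of 12 oxidant response genes 0 to 1 was called lower and 0 to 3 higher, and SRXN1 rose by 0.60 to 0.835 in healthy cattle at days 13, 28 and 60 and by 0.35 to 0.805 in BRD cattle at all 4 days. Only 2 of 13 acute phase genes besides HP passed the filter, and LBP, which was called lower on all 4 later days in both labels, had group medians of at most 0.144 CPM. None of these lists had a gene called between BRD and healthy cattle at any day.

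The genes most like members of the 10 over all libraries, by Spearman correlation of CPM, are a description, since the libraries share animals, days and cell makeup. HP was nearest to CTSH (0.635), LOC615610 (0.61) and CD14 (0.61). CD163 was nearest to ADAMTS2 (0.815), VCAN (0.81) and CD14 (0.78), and SLC11A1 to CD14 (0.685), MCFD2 (0.68) and S100A12 (0.67). HMOX1 was nearest to ACVRL1 (0.78), TIMP2 (0.77) and CSF1R (0.77), and FTL to TYROBP (0.815), SULT1A1 (0.79) and ATP6V0D1 (0.79). SLC40A1 was nearest to ZDHHC2 (0.77) and SRXN1 (0.74), and NCOA4 to CREBL2 (0.79). Among the 10 genes the closest pairs were BLVRB with FTH1 (0.76), FTH1 with FTL (0.64), HP with CD163 (0.59) and BLVRB with FTL (0.58), and TFRC was negative with 8 of the other 9.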

How the data were processed

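Whole blood RNA from 26 steers gave 129 libraries. Per the labels and the study's methods, the authors trimmed reads with Trimmomatic 0.39 after FastQC 0.11.9, aligned them to ARS-UCD1.3 with HISAT2 (2.1.1 in the submitters' processing notes), assembled with StringTie 2.2.0 and derived gene counts from coverage at a read length of 150. The deposited values are raw counts per gene, estimated from coverage and not tallied read by read. Whether counting used strand is not given in the sources used here. Library totals were 31613545 to 61692136.

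Counts were filtered (filterByExpr, 18937 genes kept of 32395), scaled by TMM and fitted in edgeR 4.0.16 (R 4.3.3) with a common dispersion and the quasi-likelihood F-test, Benjamini-Hochberg adjusted over all genes within each comparison. Standard errors are the size of the log2 change over the square root of F, and 95% intervals are 1.96 standard errors to each side. BRD and healthy cattle, and supplements, were compared in a model of 30 supplement, label and day combinations, without an animal term. Changes over days used the animal as a block: deviations of the same animal on different days had a median correlation of 0.393 over 256 pairs, against -0.011 over 6400 pairs of different animals. Replicates are separate animals. Alternatives used DESeq2 1.42.0, limma 3.58.1, other filters, scalings, dispersions and thresholds, marker covariates, pens and leaving out each animal, which kept the common dispersion of the full fit. Fits were tested on simulated data. The genes named are the 10, at most 5 called genes of smallest p per comparison from the pathway lists, and the 3 genes most like each; 1 of these results is not reported here. The 10 genes and all lists were chosen with earlier results of these data known. Gene names and overlaps came from RefSeq's ARS-UCD2.0 table, with no coordinates taken from it. Figures were drawn with matplotlib 3.10.9.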

Additional observations from a re-analysis of the deposited data

Results flagged for a closer look

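The 4 tests in which the BRD against healthy difference varied among the mineral programs were CD163 at day 0 (adjusted p = 0.0284), SLC11A1 at day 0 (adjusted p = 0.03075), FTH1 at day 13 (adjusted p = 0.0664) and BLVRB at day 13 (adjusted p = 0.08997), by edgeR's quasi-likelihood test on 2 degrees of freedom.

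In 10 of 240 groups of 4 to 7 animals, 1 animal lay far from the others of its program, label and day. Chance alone flags about 1 in 20 groups. HP in BRD animal 23 of INR on day 13 was 30.6 CPM, with the others at 76.8 to 127.3. SLC11A1 on day 0 was 202 CPM in healthy animal 6 of COMBO (others 43.2 to 48.4) and 158 CPM in healthy animal 7 of INR (others 53.95 to 62.4). HMOX1 in BRD animal 21 of AAC on day 45 was 79.2 CPM (others 43.3 to 47.9). SLC40A1 on day 0 was 285 CPM in BRD animal 31 of AAC (others 92.6 to 104.8) and 134 CPM in healthy animal 34 of AAC (others 85.7 to 88.8). BLVRB was 28.4 CPM in BRD animal 9 of AAC on day 60 (others 23.25 to 23.8), 63.9 CPM in BRD animal 39 of INR on day 45 (others 15.9 to 28.2) and 43.04 CPM in BRD animal 40 of INR on day 60 (others 13.97 to 17), a library that the study's methods note for low RNA integrity. TFRC in healthy animal 3 of COMBO on day 28 was 43.1 CPM (others 35.9 to 36.8).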

How the results depend on the processing

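Of 36 called gene and day tests, 36 held with RLE factors, 35 with a trended dispersion, 34 without a filter on low counts, 32 at an FDR of 0.05, 33 with the erythroid and 27 with the neutrophil markers as a covariate; DESeq2 kept 32 of the 32 it was run on, and none changed direction. Without the replicate block, 26 of 32 held, with 12 called in BRD and 14 in healthy cattle. HP and CD163 kept every change from day 0 under these alternatives and with any 1 animal left out. Leaving out 1 animal at a time gave 16 to 22 calls in BRD cattle, 14 to 16 in healthy cattle, 0 to 1 for the mineral programs (1 without animal 39, BLVRB at day 13) and 0 for BRD against healthy cattle. For BRD against healthy cattle, 2 were called in the pens with both labels, 3 within AAC and 1 within COMBO, which rest on fewer animals, and 0 within INR. For the difference among programs, 2 of 4 calls were left at an FDR of 0.05, 2 with the erythroid covariate and 0 with the neutrophil covariate; the cause was not tested. Leaving out animals gave 1 to 5 calls, with 1 without animal 6 or 21 and 2 without 16, 34, 49 or 50. Counts of 258 or more put no depth limit on the 10 genes. The spread between animals set the width of the intervals for BRD against healthy cattle. For changes from day 0, fitted with the animal as a block, it was the spread of libraries within animals.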
